A study of Homo sapiens with 6 samples.

Results

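Connexins are the proteins of gap junctions, and the 7 connexin genes described here are GJA1, GJA3, GJA4, GJA5, GJC1, GJB1 and GJB2. They were taken by symbol from a table of 35793 genes, which lists 21 connexin genes in all. They were chosen by symbol after the normalized counts of these same libraries had been compared between genotypes, so the differences of the members are given as a description, with no test. Messenger RNA was measured in cardiomyocytes differentiated for 15 days from WTC11, an established line of human induced pluripotent stem cells. Wild-type (WT) cells were compared with cells of a WTC11 derivative that carries a homozygous knockout of the kinase gene STK25, made with CRISPR/Cas9 and labelled STK25KO, in 3 biological replicates each. No treatment was given to either group, and the labels name 1 knockout line, so the edit and any other difference between the lines cannot be told apart.

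A ring of connexin subunits makes a hemichannel in the cell membrane, and hemichannels of adjoining cells dock to form a channel that passes ions and small molecules directly from cell to cell. In the heart these channels carry the action potential from one cardiomyocyte to the next. GJA1 encodes Cx43, the main connexin of working ventricular muscle, and GJA5 encodes Cx40, found in atrial muscle, the His-Purkinje system and arterial endothelium. GJC1 encodes Cx45, which is present early in heart development and persists in the nodes. GJA4 encodes Cx37 of arterial endothelium, GJA3 encodes Cx46 of the lens, and GJB1 and GJB2 encode Cx32 and Cx26, typical of liver and of other epithelia.

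The 6 libraries held between 22443904 and 53224112 reads recovered from the deposited normalized counts. Normalized counts are read numbers divided by 1 factor per library. STK25 stood at 8874, 6774 and 8710 normalized counts in WT and at 3906, 3434 and 3819.7 in STK25KO, so the groups did not overlap, in the direction of the labels. The second principal component, with 24.1% of the variance, set WT replicate 2 and STK25KO replicate 1 apart from the other libraries, and values without both are given where they matter. The 10 cardiomyocyte markers, such as the thin-filament gene TNNT2, summed to between 844404 and 916627 normalized counts in WT and between 838206 and 1081507 in STK25KO. In bulk RNA, fewer cells of a type and less RNA per cell cannot be told apart.

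GJA5 was the member with the widest difference. The gene spans bases 147756199 to 147773362 of chromosome 1 (GRCh38, minus strand). It stood at 1072, 820.3 and 1171 normalized counts in WT replicates 1, 2 and 3. In STK25KO it had no read in replicates 1 and 2, where 3 reads would have been 3.81 and 3.34 normalized counts, and 4 reads, or 3.55 normalized counts, in replicate 3. The groups were far apart, with the lowest WT library 231-fold above the highest STK25KO library. The means were 1021 ± 181 and 1.18 ± 2.05 (SD, n = 3 each), and the difference on the log2(value + 1) scale was -9.25 (SE 0.67). That size depended on the pseudocount because the STK25KO libraries were near 0, and it was -11.57 with a pseudocount of 0.1 and -6.53 with 10. The exact 95% Poisson interval of the 4 STK25KO reads ran from 1.09 to 10.2, against 3623 reads in WT, and covers counting error only.

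GJA1, the ventricular connexin, was also far lower in STK25KO, but reads remained in every library. It spans bases 121435577 to 121449727 of chromosome 6 (plus strand). WT replicates 1, 2 and 3 had 690.3, 981 and 498 normalized counts. STK25KO replicates 1, 2 and 3 had 16.5, 33.4 and 26.7 normalized counts, from 13, 30 and 30 reads. All WT libraries lay above all STK25KO libraries, by at least 14.9-fold. The means were 723 ± 243 and 25.5 ± 8.51 (SD, n = 3 each), so that STK25KO held 3.53% of the WT mean, with a log2 difference of -4.77 (SE 0.40). Without WT replicate 2 and STK25KO replicate 1 the log2 difference was -4.25. The processed pseudogene GJA1P1, a near copy of GJA1, was listed at 0 in every library.

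**Figure D1:**
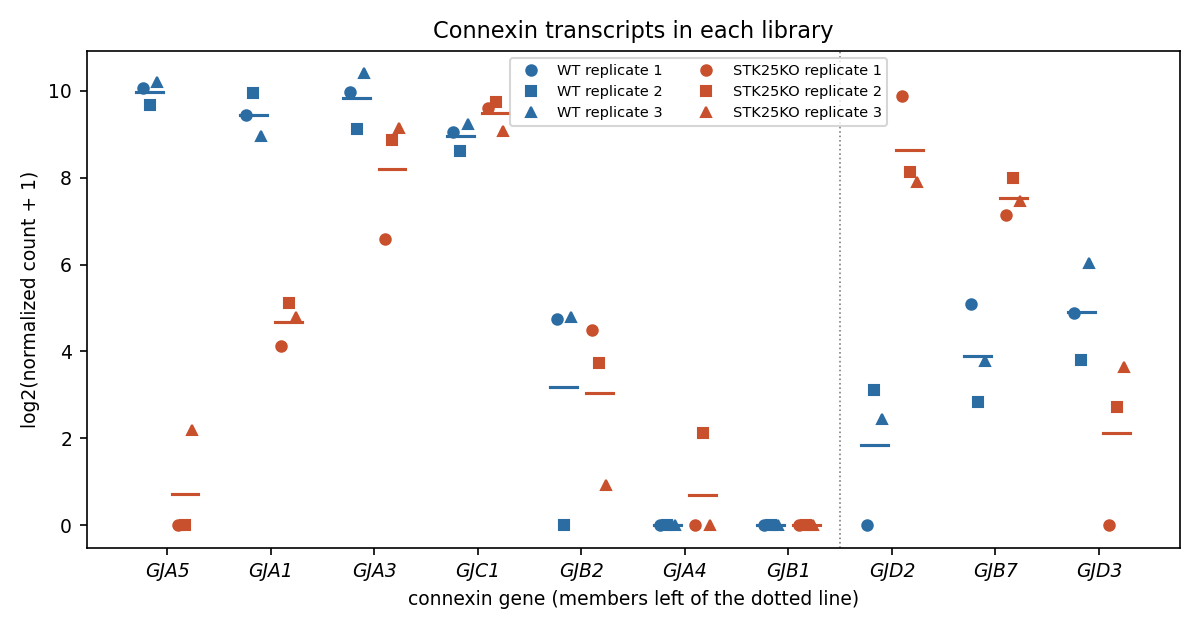
Each point is 1 library and each bar the mean of the 3 log2 values, on the log2(normalized count + 1) scale, for the 7 members and for GJD2, GJB7 and GJD3. GJA5 and GJA1 lay lower in STK25KO with no overlap, GJA3, GJC1 and GJB2 overlapped between genotypes, GJA4 and GJB1 were at or near 0, and GJD2 and GJB7 lay higher in STK25KO.

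The stretches of DNA before the GJA5 and GJA1 starts are shown because these are the members that differed most, and regulators of cardiac connexin genes are measured in the same libraries. They come from RefSeq on GRCh38.p14, 5′ to 3′ on the gene's strand, and stop before the first exon base in GENCODE 29. Capitals mark the NKX2-5 core AAGTG in GJA5 and, in the short GJA1 piece, the AP-1 motif TGANTCA that JUN binds with its partners. That piece lies before the RefSeq start but inside the first exon of GENCODE 29.
GJA5, before the upstream start, chr1:147773363-147773601, minus strand: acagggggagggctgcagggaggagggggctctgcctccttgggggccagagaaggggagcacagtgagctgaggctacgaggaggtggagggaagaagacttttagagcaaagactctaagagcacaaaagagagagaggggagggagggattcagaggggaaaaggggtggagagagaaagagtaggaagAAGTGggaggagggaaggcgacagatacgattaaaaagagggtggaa
GJA5, before the downstream start, chr1:147760607-147760852, minus strand: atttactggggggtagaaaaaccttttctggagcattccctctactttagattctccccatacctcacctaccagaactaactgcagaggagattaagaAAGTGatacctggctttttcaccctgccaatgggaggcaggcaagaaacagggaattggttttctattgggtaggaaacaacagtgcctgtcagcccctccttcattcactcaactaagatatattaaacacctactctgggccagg
GJA1, chr6:121435396-121435576, plus strand: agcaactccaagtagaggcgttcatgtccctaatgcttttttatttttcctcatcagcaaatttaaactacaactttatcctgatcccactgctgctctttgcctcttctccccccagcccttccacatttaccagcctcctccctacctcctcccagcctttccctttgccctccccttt
GJA1, around the AP-1 motif, plus strand: ctcctcccagtTGAGTCAgtggcttgaaa

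The search covered the 250 bases before each RefSeq start, on both strands. Each GJA5 window held AAGTG once, 58 and 151 bases before its start, as did 37.6% of the 35116 windows of that length. The GJA1 window held TGANTCA once, 48 bases before its start, against 6.57% of all windows. A T-box half-site was searched as GGTGTNA and is held by 7.66% of all windows. A GATA motif was searched as AGATAA (9.17% of windows). The E-box that HEY proteins can bind was searched as CACGTG (6.34% of windows). The GC box of SP1 was searched as GGGCGG (42.6% of windows). None of these 4 motifs was in the GJA5 or GJA1 windows, while the GJA3 window held the GC box 2 times and the GJB2 window held it 3 times. The GJB2 window also held the NKX2-5 core once, 235 bases before its start, as AAGTG on the opposite strand. The GJB1 window held none of the 6 motifs. A match of letters is a description, and no match says only that these letters are not in this window.

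GJA3, best known from lens fibres, was a sizeable transcript in these cardiomyocytes. WT replicates had 995, 558 and 1351 normalized counts, and STK25KO replicates had 95.3, 468 and 562. STK25KO replicate 1 was the low library of its group, and STK25KO replicate 3 lay just above WT replicate 2, so the groups overlapped. The means were 968 ± 397 and 375 ± 247 (SD, n = 3 each), with a log2 difference of -1.63 (SE 0.67), which shrank to -0.82 without STK25KO replicate 1 and was -1.18 without both that library and WT replicate 2. Of 8 lens markers, CRYAA, LIM2 and FOXE3 were at 0 in every library and CRYBB2 and BFSP2 had at most 3 reads in any. With limma none of the 2 tested lens markers passed, 1 had an unadjusted p under 0.05, and edgeR and DESeq2 called 0.

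GJC1, the early and nodal connexin, was well detected in both genotypes. WT replicates had 526, 392 and 602 normalized counts and STK25KO replicates had 782, 859 and 542. Its means were 506 ± 106 in WT and 728 ± 165 in STK25KO (SD, n = 3 each), a log2 difference of 0.52 (SE 0.28). The groups overlapped, since WT replicate 3 lay above STK25KO replicate 3, and the difference was 0.24 with libraries scaled to equal totals.

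The other members were at the edge of detection. GJB2 had 25.7, 0 and 26.8 normalized counts in WT and 21.6, 12.3 and 0.889 in STK25KO, from at most 42 reads, and the groups overlapped (log2 difference -0.13, SE 1.53, of unstable sign). GJA4 had 3 reads in STK25KO replicate 2 and none elsewhere. GJB1 had no read in any library, where a floor of 3 reads corresponds to between 1.91 and 4.53 normalized counts.

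Of the 7 members 5 reached the mean of 10 normalized counts needed for the fit across genes. GJA5 and GJA1 were past its adjusted p threshold of 0.05, both lower, where 12.8% of the 15536 genes tested were past it and 6.79% were past it and lower. Nothing is read from that count, because the members were proposed with this contrast in view and GJA5 reached the mean through WT alone. GJA5 and GJA1 were also the members without overlap between genotypes. Of all genes tested, 33.4% had no overlap, and 17.2% had every STK25KO library below every WT library. The median log2 difference was -1.63 over the 5 members and 0.0052 over all genes tested.

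Some connexins outside the 7 went the other way. Among 14 other connexins, 5 were tested, 2 rose and 0 fell, where 5.97% of all genes were called higher. Nothing is read from that count, because GJD2 and GJA9 reached the mean of 10 through STK25KO alone and GJD3 through WT alone. The median log2 difference of the 5 was 1.10. GJD2 encodes Cx36, the connexin of electrical synapses between neurons. It had 0, 7.62 and 4.47 normalized counts in WT and 934, 280 and 236 in STK25KO, with no overlap and the highest value in STK25KO replicate 1. It rose by a log2 difference of 6.78 (SE 0.91, limma adjusted p = 0.00338). It stayed past the threshold when any 1 library was left out, with an adjusted p of at most 0.0166. Since GJD2 passed the filter through STK25KO alone, these p-values are a description and no support for the difference.

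GJB7, a little-studied connexin, had 33.2, 6.09 and 12.8 normalized counts in WT and 139.8, 253 and 176 in STK25KO. Every STK25KO library lay above every WT library. It rose by 3.63 on the log2 scale (SE 0.62, limma adjusted p = 0.00967), and its adjusted p was at most 0.0445 when any 1 library was left out. SMIM8 overlaps it on the opposite strand and stood at 786.9, 1156 and 759 in WT and at 763, 339 and 444 in STK25KO. Strand use in the counting is not given in the sources used here, so reads of the pair may not be separated.

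GJD3 had 28.7, 12.9 and 65.1 normalized counts in WT and 0, 5.57 and 11.6 in STK25KO. The groups did not overlap, by a narrow margin, and the log2 difference of -2.79 (SE 1.09, limma adjusted p = 0.144) did not pass. Without WT replicate 2 and STK25KO replicate 1 its adjusted p was 0.0433. GJA9, with a log2 difference of 1.10 (SE 1.57, limma adjusted p = 0.715), and GJD4, with 0.78 (SE 0.75, limma adjusted p = 0.567), overlapped between genotypes. Leaving out 1 library moved GJA9 to between 0.06 and 2.69 (lowest without WT replicate 2, highest without STK25KO replicate 2) and GJD4 to between 0.29 and 1.24 (lowest without WT replicate 1, highest without WT replicate 2). Of the 9 untested connexins, 7 had at most 3 reads in any library.

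Levels of different genes were compared per kb of the longest GENCODE 29 transcript. In WT, GJA5 led with 321 ± 56.8 normalized counts per kb (SD, n = 3), followed by GJA1 with 229 ± 77.2, GJA3 with 186 ± 76.3 and GJC1 with 66.3 ± 13.9. The ranges of GJA5 and GJA1, and of GJA1 and GJA3, overlapped, while all WT libraries had more GJA3 than any had GJC1. In STK25KO the order was GJD2 with 167 ± 135, GJC1 with 95.3 ± 21.6, GJB7 with 83.1 ± 25.3 and GJA3 with 72.0 ± 47.3 (SD, n = 3 each), and each of these overlapped with the next. GJA1 stood at 8.10 ± 2.70 and GJA5 at 0.372 ± 0.645 normalized counts per kb. Per kb of coding sequence GJA3 preceded GJA1 in WT, and GJC1 preceded GJD2 in STK25KO. On that scale the WT ranges of GJA3 and GJC1 overlapped, with the lowest GJA3 at 427 and the highest GJC1 at 506.

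All 21 connexins together came to 886, 774 and 972 normalized counts per kb in WT and to 567, 442 and 381 in STK25KO, so the sum was lower in every STK25KO library. GJA5 made up 33.3% to 38.0% of that sum in WT libraries and 0% to 0.29% in STK25KO libraries. GJA1 made up 16.2% to 40.2% in WT, with the top share in WT replicate 2, and 0.92% to 2.40% in STK25KO. The mean share of GJC1 was 7.50% in WT and 20.7% in STK25KO, and 14.7% and 34.5% per kb of coding sequence. GJD2 was at most 0.34% of the sum in WT and ran from 21.5% to 57.0% in STK25KO.

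**Figure D2:**
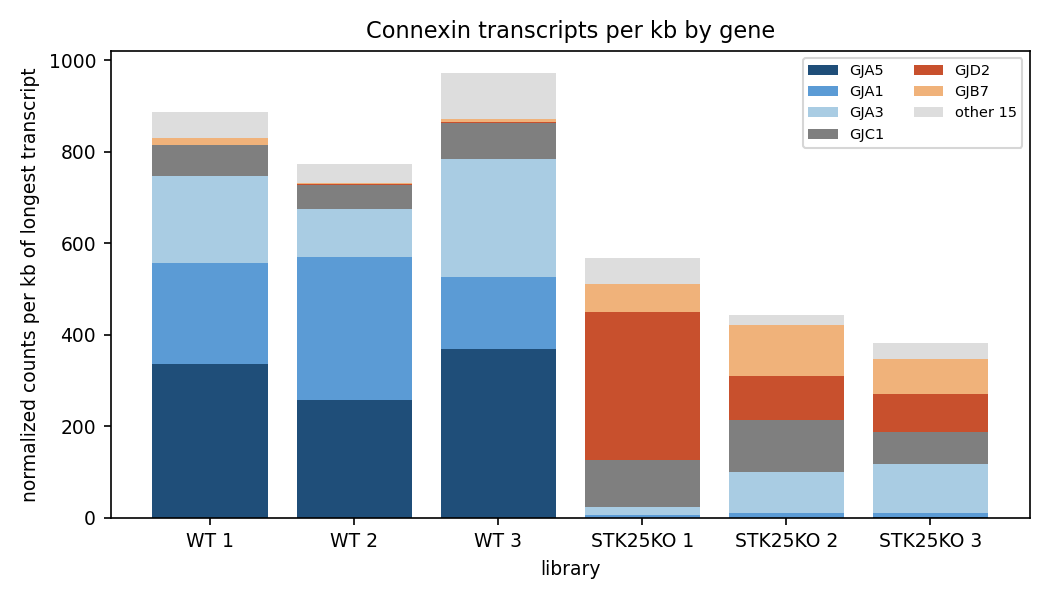
Stacked bars give the normalized counts per kb of longest transcript of each connexin gene in each of the 6 libraries, starting at 0. GJA5, GJA1 and GJA3 fill most of the WT bars, whereas GJC1, GJD2, GJB7 and GJA3 fill most of the STK25KO bars, which are lower in total.

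The replicates varied in different ways for different members. Within WT, replicate 2 had the most GJA1 and the least GJA3, GJA5 and GJC1. Within STK25KO, replicate 1 had the least GJA1 and GJA3 and the most GJD2. The coefficient of variation over 3 replicates was 17.7% for GJA5, 20.9% for GJC1, 33.7% for GJA1 and 41.1% for GJA3 in WT, and 22.7%, 33.3% and 65.8% for GJC1, GJA1 and GJA3 in STK25KO.

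Genes with the most similar profile were sought among 13035 genes with a mean of at least 50 as those with the smallest root mean square distance between log2 profiles over the 6 libraries, each centred on its own mean. For GJA1 they were the pseudogene LRRC37A11P (distance 0.19), PRDM16, a cardiac transcriptional regulator (0.28), and GSTT2B, a glutathione transferase gene (0.29). LRRC37A11P and GSTT2B have close paralogs, so their counts are uncertain. PRDM16 had 340, 407 and 374 normalized counts in WT and 10.2, 17.8 and 16.9 in STK25KO. For GJA5 they were TSPYL5 (0.78), LINC00514 (0.80) and ZFP28 (0.82), each with no more than 1.78 normalized counts in any STK25KO library. For GJC1 they were ADNP2 (0.07), PGM2L1 (0.09) and SPTBN1 (0.11), whose values, like those of GJC1, were lowest in WT replicate 2. All these profiles come from the same 6 libraries, and likeness is a description.

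**Figure D3:**
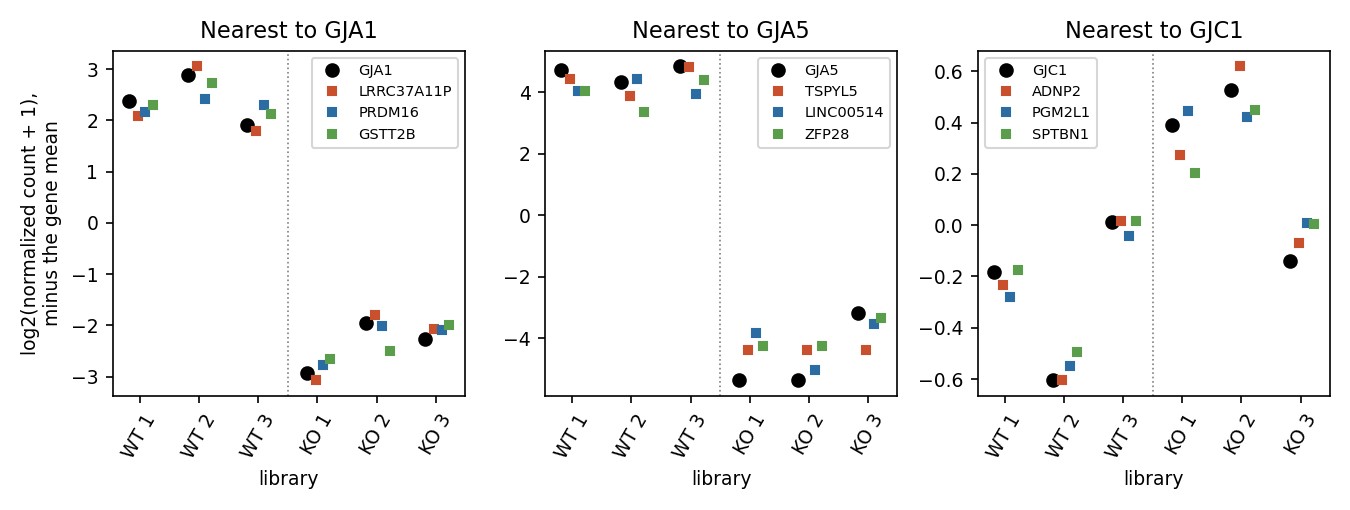
For GJA1, GJA5 and GJC1 (black) and the 3 nearest genes of each, points show log2(normalized count + 1) minus the gene's mean over the 6 libraries. The GJA1 and GJA5 panels separate WT from STK25KO with no overlap, while GJC1, ADNP2 and SPTBN1 overlap between genotypes and PGM2L1 lies higher in STK25KO by a narrow margin.

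Transcription factors were then examined that are known for cardiac connexin genes or for the atrial, ventricular and nodal programmes in which connexins differ. Of 19 listed, 18 were tested and 4 fell, beside 6.79% of all genes tested, with a median log2 difference of -0.29. NKX2-5, a homeobox factor known to activate GJA5, fell. Its libraries held 20429, 23430 and 19414 normalized counts in WT and 6718, 5869 and 6745 in STK25KO, a log2 difference of -1.71 (SE 0.18, limma adjusted p = 0.00135). All STK25KO libraries lay below all WT libraries.

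The Notch-regulated repressors HEY1 and HEY2 fell as well. HEY1 had a log2 difference of -2.18 (SE 0.28, limma adjusted p = 0.00295) and HEY2 one of -4.57 (SE 0.28, limma adjusted p = 0.000177). JUN fell, with a log2 difference of -0.90 (SE 0.20, limma adjusted p = 0.0237). Its adjusted p missed the threshold without WT replicate 1 (0.122), WT replicate 3 (0.0969), STK25KO replicate 2 (0.0755) or STK25KO replicate 3 (0.0570). TBX5, the T-box activator of GJA5, had 3148 normalized counts in WT and 1874 in STK25KO (log2 difference -0.76, SE 0.22, limma adjusted p = 0.0666) and did not pass. The T-box repressors TBX2, TBX3 and TBX18 had log2 differences of 0.27, 0.87 and 1.22 (limma adjusted p = 0.499, 0.0871 and 0.0898), also short of the threshold.

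**Figure D4:**
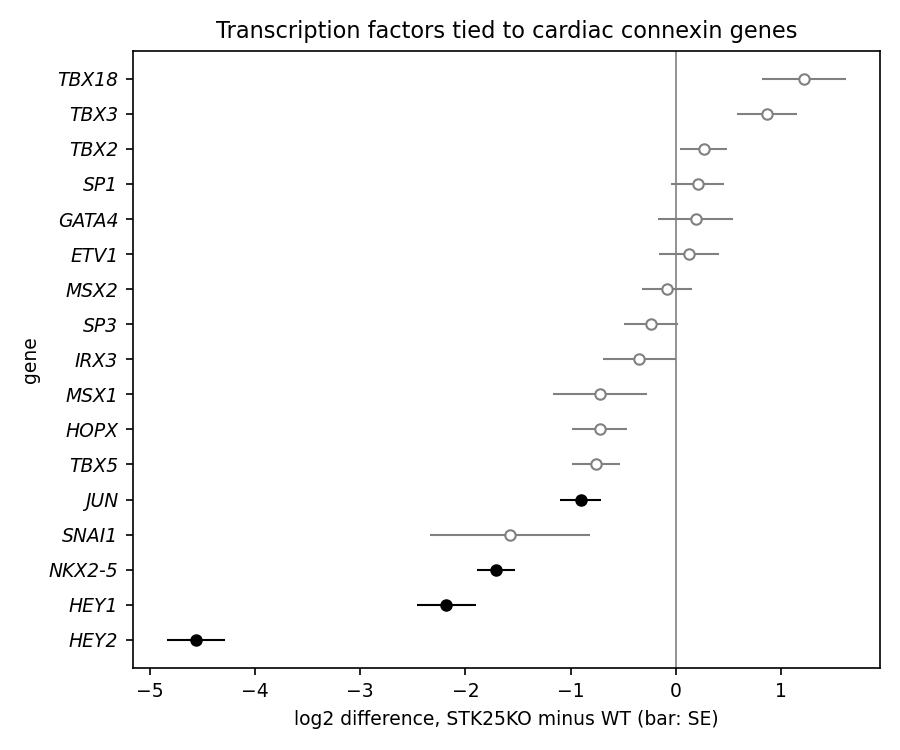
Points are log2 differences (STK25KO minus WT) with bars of 1 SE for tested transcription factors of the list, filled where the limma adjusted p was under 0.05. HEY2 lies farthest to the left of the genes drawn, at -4.57, with HEY1, NKX2-5 and JUN also filled.

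Transcripts of proteins that anchor, carry, modify or remove connexins were read from the same fit, where 12.8% of all genes were called. Among 12 scaffold and delivery partners, 10 were tested, 0 rose and 1 fell, and DESeq2 called 3. CAV1, a caveolar protein that binds Cx43, fell. It had 896, 954 and 686 normalized counts in WT and 352, 259.7 and 369.7 in STK25KO, a log2 difference of -1.37 (SE 0.25, limma adjusted p = 0.0128), and without WT replicate 1 its adjusted p was 0.0728. TJP1, the ZO-1 scaffold at the edge of gap junction plaques, had a log2 difference of -0.27 (SE 0.23, limma adjusted p = 0.506), and CDH2, the N-cadherin of the intercalated disc, one of 0.34 (SE 0.36, limma adjusted p = 0.606).

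Of 10 tested kinases that act on connexin tails, 1 rose and 0 fell. CAMK2D, the main cardiac calcium/calmodulin-dependent kinase, rose by 1.42 on the log2 scale (SE 0.32, limma adjusted p = 0.0273), but its adjusted p was 0.116 with equal totals. It also missed the threshold without WT replicate 1, 2 or 3 (0.0804, 0.0632 and 0.0620) and without STK25KO replicate 2 or 3 (0.0789 and 0.105). Of 8 turnover genes, such as the ubiquitin ligases NEDD4 and SMURF2, limma called 0, with 3 at an unadjusted p under 0.05, edgeR called 0 and DESeq2 called 2. The medians of these 3 lists were -0.05, 0.29 and -0.08.

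Chamber and conduction genes were set beside the connexins because GJA1, GJA5 and GJC1 mark different parts of the heart. Of 8 tested ventricular genes, 0 rose and 4 fell, namely MYL2, CORIN, HEY2 and IRX4, beside 5.97% and 6.79% of all genes tested. The median of the list was -1.52. The other 4 had positive log2 differences that did not pass, from 0.06 for LBH to 1.42 for MYH7, a myosin heavy chain gene (limma adjusted p = 0.886 and 0.0639). The sum of the list was 232385 to 288628 normalized counts in WT and 402740 to 436367 in STK25KO, so it was higher where the median was lower. CORIN, a protease of cardiomyocytes, averaged 12166 normalized counts in WT and 116 in STK25KO, a log2 difference of -6.70 (SE 0.29, limma adjusted p = 5.66e-05). Of 10 tested atrial genes 2 fell, beside 6.79% of all genes tested, and the median was 1.18. Positive log2 differences, past the threshold or not, were held by 8 of the 10. NR2F2, an atrial nuclear receptor, rose (log2 difference 3.59, SE 0.59, limma adjusted p = 0.00818). NPPA, the atrial natriuretic peptide gene, and KCNA5, an atrial potassium channel, fell, with log2 differences of -2.38 and -1.93 (limma adjusted p = 0.00463 and 0.00307).

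Of 10 conduction system genes, 8 were tested and 1 rose, beside 5.97% of all genes tested, with a median of 0.50. ISL1, a progenitor and sinus node factor, rose by 3.82 (SE 0.26, limma adjusted p = 0.000225). These lists were chosen with earlier results of these data known and are not independent evidence of direction.

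Markers of other cells that carry connexins also differed. Over all genes tested, 5.97% were called higher and 6.79% lower, and the counts of marker calls below stand beside these shares. Of the 10 cardiomyocyte markers CASQ2 rose and PLN fell (log2 differences 1.69 and -0.76, limma adjusted p = 0.0416 and 0.0459). Neither passed without any one of WT replicates 1, 2 or 3 or STK25KO replicates 2 or 3, with adjusted p-values up to 0.149 and 0.173. ACTN2, TNNC1, TTN, MYBPC3 and TNNT2 had positive log2 differences (1.16, 1.07, 0.66, 0.63 and 0.32), none past the threshold. MYH6, TNNI1 and RYR2 had negative ones (-1.14, -0.42 and -0.15), also short of it. With limma 6 of the 10 had an unadjusted p under 0.05. Of 10 endothelial markers 5 were tested and limma called 0, with 1 at an unadjusted p under 0.05 and 0 by edgeR or DESeq2. CDH5, TIE1 and ERG had at most 3 reads in any library, while PECAM1 averaged 38.7 normalized counts in WT and 35.3 in STK25KO. EMCN lay higher in every STK25KO library than in any WT library, without passing (log2 difference 1.44, limma adjusted p = 0.156). The sum of the list ran from 1284 to 1399 normalized counts in WT and from 1426 to 2232 in STK25KO. Most of it was EGFL7 and KDR, with every STK25KO sum above every WT sum.

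Of 8 tested smooth muscle and pericyte markers 2 rose, MYH11 (log2 difference 5.12, limma adjusted p = 0.000175) and CNN1 (1.03, limma adjusted p = 0.0228). The sum went from between 26225 and 32517 to between 51300 and 62728 normalized counts. Most of that rise was CNN1 (means 18278 and 37182) and MYH11 (254 and 8493). ACTG2, PDGFRB and MCAM had positive log2 differences (0.46, 2.24 and 0.87) and RGS5, CSPG4 and NOTCH3 negative ones (-0.13, -1.68 and -0.35), none past the threshold. CNN1 had an adjusted p of 0.109 with equal totals, and it was over the threshold in each fit that left out 1 library except that without STK25KO replicate 1, up to 0.107. Of 8 tested fibroblast markers COL3A1, DCN and THY1 rose (2.61, 2.82 and 2.95, limma adjusted p = 0.0172, 0.0276 and 0.00275) and COL1A2 fell (log2 difference -5.01, limma adjusted p = 0.000616). DCN missed the threshold without WT replicate 1 or 3 or STK25KO replicate 2 or 3, with adjusted p-values up to 0.112. COL3A1 missed it without WT replicate 1 or STK25KO replicate 2 or 3, up to 0.0719. COL1A1 and POSTN had negative log2 differences (-1.10 and -2.38) and PDGFRA and LUM positive ones (0.86 and 0.66), none past the threshold. The fibroblast sum was 12924 to 26543 normalized counts in WT and 7871 to 16397 in STK25KO. COL1A1, a large part of it, averaged 10227 normalized counts in WT and 4792 in STK25KO.

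Of 8 epithelial markers 7 were tested and 2 fell, KRT19 (log2 difference -1.38, limma adjusted p = 0.00341) and CLDN6 (log2 difference -2.25, limma adjusted p = 0.00102). The sum of the list went from between 21666 and 30046 to between 8150 and 8782 normalized counts, most of it KRT19 and CLDN6. EPCAM overlapped between genotypes (log2 difference -0.20, limma adjusted p = 0.660). CDH1 and ESRP1 had positive log2 differences (0.22 and 0.42) and KRT7 and CLDN4 negative ones (-2.83 and -3.07), none past the threshold. Of 8 liver markers 6 were tested, with AFP and FGB lower and APOB higher (log2 differences -5.21, -5.01 and 7.42, limma adjusted p = 0.00661, 0.0121 and 0.000938). The other tested liver markers, TTR, APOA1 and SERPINA1, had negative log2 differences that did not pass (-2.39, -0.70 and -0.41). The list summed to 1842 to 3212 normalized counts in WT and 1568 to 1805 in STK25KO. Most of it was APOA1, with means of 2026 in WT and 1195 in STK25KO. AFP and FGB reached the mean of 10 through WT alone and APOB through STK25KO alone, so these calls rest on the genotype where each is high. Of 8 pluripotency markers 7 were tested and 1, TDGF1, rose (2.63, limma adjusted p = 0.000656). The list summed to 1274 to 1767 normalized counts in WT and 3129 to 4634 in STK25KO. TDGF1 made up most of each STK25KO sum, with means of 560 in WT and 3516 in STK25KO. DNMT3B, ZFP42 and L1TD1 lay lower in every STK25KO library than in any WT library, without passing (log2 differences -3.20, -1.95 and -1.27). The other tested markers, POU5F1, LIN28A and DPPA4, had positive log2 differences that did not pass. The part of other cells in the connexin differences was not tested.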

How the data were processed

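The authors deposited 1 table of normalized counts (a signal unit), 1 column per library. Per the submitters' processing notes, bcl2fastq 2.19, kallisto 0.44.0, DESeq2 1.28.1 and GRCh38 were used. The annotation, strand use and factors are not given in the sources used here. All values (100%, tolerance 0.01) were whole multiples of 1 step per library, which gave the reads. Kallisto estimates can be fractional, so these may be rounded estimates. Per the labels' protocols, RNA was column-purified and libraries were made with the Clontech Ultra Low v4 and NexteraXT kits. Molecular identifiers are not mentioned, so floors of 3 reads and intervals cover counting error only.

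Tests used limma 3.58.1 (R 4.3.3; lmFit and eBayes with trend) on log2(value + 1), over the 15536 genes whose mean reached 10, with Benjamini-Hochberg adjustment over all of them and a threshold of 0.05. Differences are STK25KO minus WT on that scale, which understates low genes. edgeR 4.0.16 and DESeq2 1.42.0 on the recovered reads, other pseudocounts, filters and scalings, a replicate block and leaving out libraries were alternatives. The fits were tested on simulated data. Positions and lengths are from GENCODE 29 (GRCh38), and of the 7 members 5 had a RefSeq promoter window. Figures used Python 3.11.15 and matplotlib 3.10.9.

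The members and lists were chosen with earlier results of these data known. Named were STK25, all members, other connexins with a mean of at least 10, up to 5 genes per list past the threshold, by size of log2 difference, whose mean reached 50 in 1 genotype, and the nearest profiles. FGB, SMIM8, TJP1, CDH2, TBX2, TBX3, TBX5, TBX18 and the chromosomal neighbours were named outside that rule, with results known. The same holds for list genes named as not past the threshold. Some genes of the transcription factor, atrial and conduction lists are not reported here. They stay in the lists' medians and in the numbers of calls under the alternatives, and are left out of the calls given by direction.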

Additional observations from a re-analysis of the deposited data

How the results depend on the processing

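GJA1 and GJA5 were lower in every alternative run. Leaving out 1 library, the log2 difference ran from -5.01 to -4.50 for GJA1, -9.98 to -8.89 for GJA5, -2.10 to -0.82 for GJA3, 0.34 to 0.72 for GJC1 and -1.72 to 0.94 for GJB2. With pseudocounts of 0.1 and 10 GJA5 was at -11.57 and -6.53. Coding length in place of transcript length gave the ranks 3 for GJA1, 2 for GJA3 and 10 for GJD2 in WT, and 5 for GJA1, 3 for GJA3, 12 for GJA5, 1 for GJC1, 2 for GJD2 and 4 for GJB7 in STK25KO.

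The genes called between genotypes numbered 1982, from 792 to 2192 when 1 library was left out (792 and 911 without WT replicates 1 and 3, 1270 and 963 without STK25KO replicates 2 and 3), 3210 with DESeq2 and 798 with a replicate block. Deviations of same-numbered libraries from their group means correlated at -0.23, -0.40 and 0.17. With 3 replicates per genotype these values cannot tell whether the samples were paired. With the replicate block the calls were 0 for scaffold and delivery partners, 0 for kinases, 0 for cardiomyocyte markers, and 1 each for conduction and smooth muscle genes, and STK25 had an adjusted p of 0.0684. With DESeq2 they were 3 for partners, 2 for turnover, 8 for transcription factors, 7 for atrial, 6 for conduction, 6 for cardiomyocyte, 4 for epithelial and 3 for pluripotency genes. Equal totals, which moved the median of all genes to -0.27, gave 0 for kinases, 1 for smooth muscle and 2 for pluripotency genes. A pseudocount of 10 gave 2 for partners, and no filter gave 1 for cardiomyocyte markers. Leaving out 1 library, partners ran from 0 to 2, kinases 0 to 1, conduction genes 1 to 2, cardiomyocyte markers 0 to 3, smooth muscle markers 1 to 2, fibroblast markers 2 to 4, transcription factors 4 to 7, liver markers 2 to 4 and pluripotency markers 1 to 2. STK25 had an adjusted p of 0.0611 without WT replicate 1.

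Without WT replicate 2 and STK25KO replicate 1, an alternative chosen after seeing the data, 4706 genes were called, GJA1 was at -4.25, and the lists gave 3 for partners, 3 for kinases, 2 for turnover, 8 for transcription factors, 7 for atrial, 5 for conduction, 8 for cardiomyocyte, 5 for smooth muscle, 8 for fibroblast and 2 for pluripotency genes. The cause of these shifts was not tested. For GJA4, GJB1 and GJB2, with at most 42 reads in any library, no difference between genotypes was detectable at this depth.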

Other observations

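The pannexins form membrane channels related in shape to hemichannels. PANX1 had 443, 174 and 489 normalized counts in WT and 268, 636 and 445 in STK25KO, which overlapped (log2 difference 0.34, SE 0.48, limma adjusted p = 0.714). PANX2 had 30.2, 103 and 24.9 in WT and 41.9, 17.8 and 12.4 in STK25KO (log2 difference -0.98, SE 0.72, limma adjusted p = 0.432), and PANX3 had no read. Of the 2 tested, limma called 0, with 0 at an unadjusted p under 0.05 and 0 by edgeR or DESeq2.

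The 2 nearest tested genes on each side of the 5 tested members were read from the same fit. Of 16 such genes that are not connexins, 1 was called, beside 12.8% of all genes tested. ADAM11, which lies 16.6 kb from GJC1 on chromosome 17, fell by 4.68 on the log2 scale (SE 0.45, limma adjusted p = 0.000938), from a mean of 885 to 36.4 normalized counts, and its adjusted p was at most 0.00764 when any 1 library was left out. GJC1 itself had a log2 difference of 0.52, and EFTUD2, 19.1 kb away on its other side, had a log2 difference of -0.03 (SE 0.35, limma adjusted p = 0.966). The neighbours of GJA5, 85.7 to 329 kb away, had log2 differences of -0.64 (ACP6), -0.72 (BCL9), -0.49 (GPR89B) and -0.48 (NBPF11), none past the threshold in limma, beside -9.25 for GJA5. ACP6 passed with DESeq2 (adjusted p = 0.0178) and with equal totals (0.0320), and without WT replicate 2 and STK25KO replicate 1 both ACP6 (0.00539) and BCL9 (0.0144) passed. The neighbours of GJA1 ran from -1.23 (TBC1D32) to 0.02 (HSF2), and none passed, while MAN1A1 passed without those 2 libraries (0.00782), as did DBF4B, a neighbour of GJC1 (log2 difference -0.80, adjusted p = 0.0364). These neighbours were chosen after the connexin values had been seen.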
